A study of Mus musculus with 8 samples.

Results

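The complement genes are 33 mouse genes chosen by name for their place in the complement system: the C1 complex, the lectin pathway, the convertases with C3 and the alternative pathway, the terminal pathway, the soluble and membrane regulators, and the receptors. All 33 were matched to a row of the 22504 rows of the expression table, and 31 of them passed the expression floor, set at 1 FPKM (fragments scaled to transcript length and to the mapped fragments of the sample) in 2 or more of the 8 samples, as did 11007 of all genes. C7 and Cfd did not pass it. The samples came from 8 mice of the 129S4 strain, all Fah-/-, in which the final step of tyrosine breakdown is missing and NTBC, an inhibitor acting upstream of it, is needed for survival, at 7.5 mg/L in drinking water. The C 8w group (3 mice, here called 1a, 2a and 3a after their labels) had 8 weeks of moderate chronic liver injury (MCLI) on 2.5% of that dose. The C 12w group (2 mice, 2e and 3e) had 12 weeks of it, and its tissue is labelled tumor, while the other groups are labelled liver. The C 8w + A 4w group (3 mice, C096, C097 and C098, called the severe-injury group here) had 8 weeks of MCLI and then 4 weeks of severe acute liver injury (SALI), with NTBC withdrawn. No mouse with an intact Fah gene and none on the full dose was among them, and the labels give no ages.

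Complement is a set of plasma proteases and their targets that marks microbes and damaged cells for removal. The classical pathway starts when C1q binds antibody and activates C1r and C1s. The lectin pathway starts when mannose-binding lectins or ficolins bind sugars and activate the MASP proteases, and the alternative pathway amplifies both through factor B. All of them cleave C3, after which C5 (named Hc in the mouse) is cleaved and C6, C7, C8 and C9 build the membrane attack complex. Hepatocytes secrete most of these proteins into plasma, while C1q and properdin come largely from macrophages and other myeloid cells, and factor D from fat.

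The question the 3 groups address is what severe injury does to a liver that has been through chronic injury, compared with its starting point (C 8w) and with tumors from chronic injury carried on to the same week (C 12w). Since both C 12w samples are labelled tumor and all others liver, tumor tissue cannot be told apart from the length or kind of injury in any comparison with C 12w. Fah itself, the disrupted gene, was at 13.5 to 16.8 FPKM in C 8w and C 12w, at 5.02 to 6.36 after severe injury, and since all mice carry the same genotype it does not check the labels. The sample codes of C 8w and C 12w have a common form and those of the severe-injury group another, and whatever this difference stands for cannot be told apart from severe injury. Alb was listed at 0, Gapdh at 0.0980 to 0.247 and Ppia at 0.408 to 0.533 FPKM in all 5 samples of the former kind, against at least 12946 for Alb, 68.2 to 99.9 for Gapdh and 761 to 848 for Ppia in the latter. Every fold change between the severe-injury group and either other group may therefore hold a difference in how the values were quantified, which cannot be told apart from severe injury. An FPKM of 0 is given only as listed. Values after ± are standard errors (SE) for log2 fold changes and standard deviations (SD) for means. The other 8 hepatocyte markers found in the table were high in every sample and summed to 16320 to 21124 FPKM in C 8w, 13908 to 17029 in the severe-injury group and 14968 to 29673 in C 12w. The extraction note in the labels names retinas, and 1 of 10 retina markers passed the expression floor, with sums of 2.02 to 3.69 FPKM. FPKM keeps no read numbers, so the sequencing depth is unknown.

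In 20 of the 33 complement genes the mean FPKM was lowest after severe injury, a count that was not made over all genes. In the severe-injury group against C 8w, 18 of the 31 genes tested were lower, 1 was higher (Cr1l) and 12 did not pass the test (limma on log2(FPKM + 1), which understates the change of low genes, Benjamini-Hochberg adjusted p under 0.05 over all 11007 genes). Of all genes tested, 13.5% were lower, 25.6% higher and 39.1% either in that comparison. The median log2 fold change was -1.14 over the complement genes and 0.13 over all genes. In the severe-injury group against C 12w, 21 were lower, 2 were higher (Fcna and Cr1l) and 8 did not pass, where 16.1% of all genes were lower, 18.1% higher and 34.2% either, with medians of -1.44 and 0.0070. Both comparisons use the same 3 samples of the severe-injury group, so they are not independent of each other. In C 12w against C 8w, 7 were higher, 2 were lower (Fcna and Cd59a) and 22 did not pass, where 13.1% of all genes were higher, 6.90% lower and 20.0% either, with medians of 0.34 and 0.12. Scaling the samples by median ratios moved the median of all genes in the severe-injury group against C 8w from 0.13 to 0.0057 and that of the complement genes from -1.14 to -1.28. The split of all genes called changed with it, from 2814 higher and 1491 lower to 2168 and 2180, with 1 and 19 of the complement genes, and in C 12w against C 8w from 1439 and 760 to 1088 and 1162, with 6 and 2.

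Of 8 hepatocyte markers, Alb left out since it is listed at 0, severe injury against C 8w gave 1 higher (Apoa1) and 2 lower (Serpinc1 and Hpx). Against C 12w it gave none higher and 4 lower (Apob, Ahsg, Serpinc1 and Hpx), and C 12w against C 8w gave 1 higher (Apob) and none lower. Some hepatocyte markers were thus lower in the same comparisons as the complement genes. Against C 8w, however, Apoa1 was higher, and Apoh, Apob, Ahsg, Fgb and Ttr did not pass the test. Of all genes, 13.5% were lower and 25.6% higher against C 8w, and 16.1% and 18.1% against C 12w. The part of hepatocyte markers in the complement results was not tested.

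Added over all 33 genes, the complement transcripts came to 4301, 3825 and 3527 FPKM in C 8w (1a, 2a and 3a), to 1352, 2118 and 1859.9 in the severe-injury group (C096, C097 and C098) and to 5450.0 and 5463 in C 12w (2e and 3e). That was 0.951 to 1.14% of all FPKM of a sample in C 8w, 0.338 to 0.555% in the severe-injury group and 1.497 and 1.68% in C 12w. C3 alone held 34.0 to 36.7% of the complement sum in C 8w, 22.7 to 28.97% in the severe-injury group and 29.4 and 30.0% in C 12w. In bulk tissue, fewer cells of a type and less RNA per cell cannot be told apart, which holds for all values given here.

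**Figure D1:**
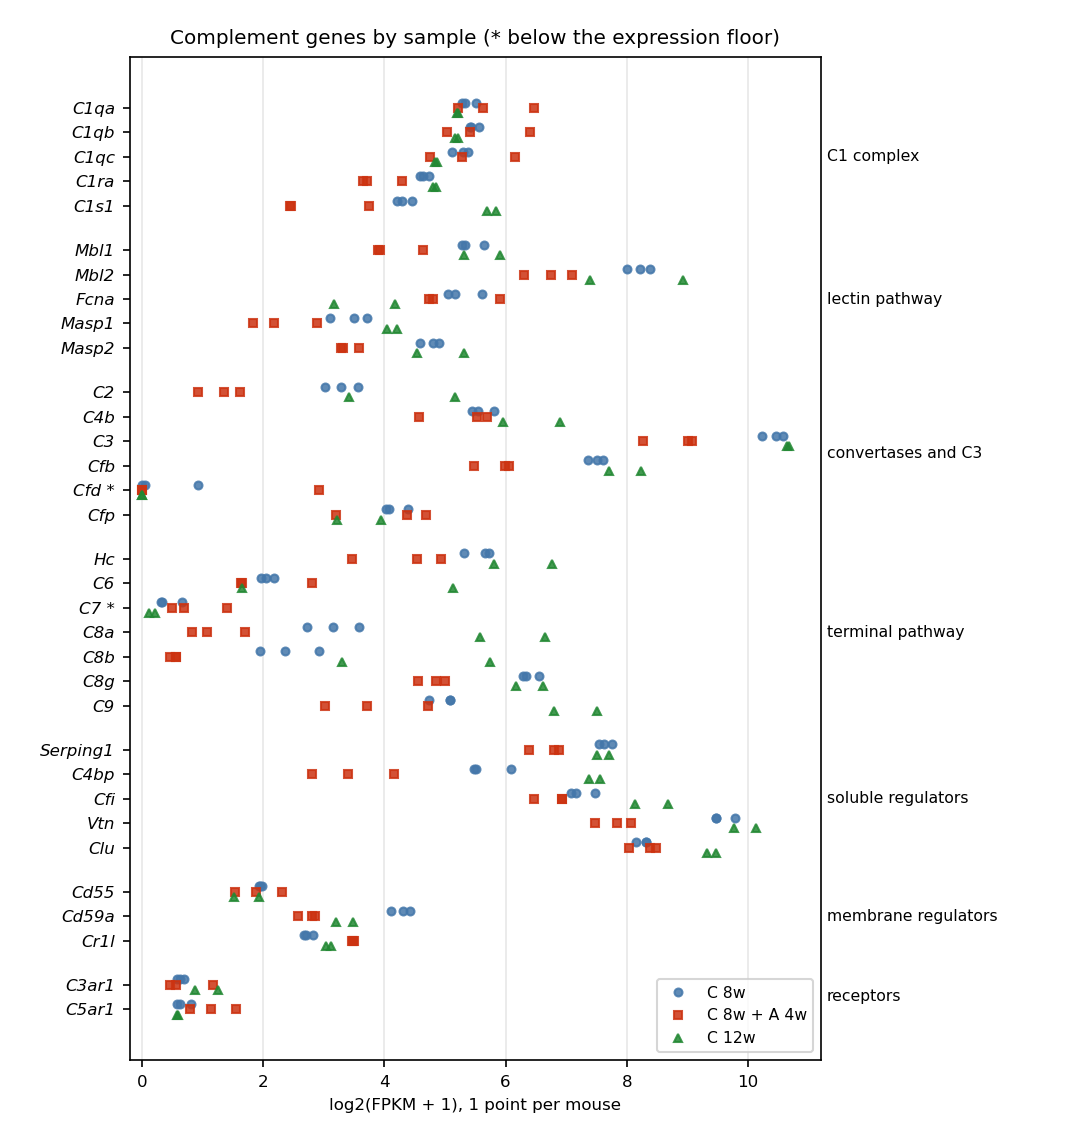
Expression of the 33 complement genes as log2(FPKM + 1) on the horizontal axis, with 1 point per mouse, in the order of their roles; circles are C 8w (n = 3), squares the severe-injury group (C 8w + A 4w, n = 3) and triangles C 12w (n = 2), and an asterisk marks the genes below the expression floor. The squares of C3, C8g, C4bp and Vtn lie to the left of all circles and triangles, while those of C1qa, C1qb and C1qc spread around them.

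**Figure D2:**
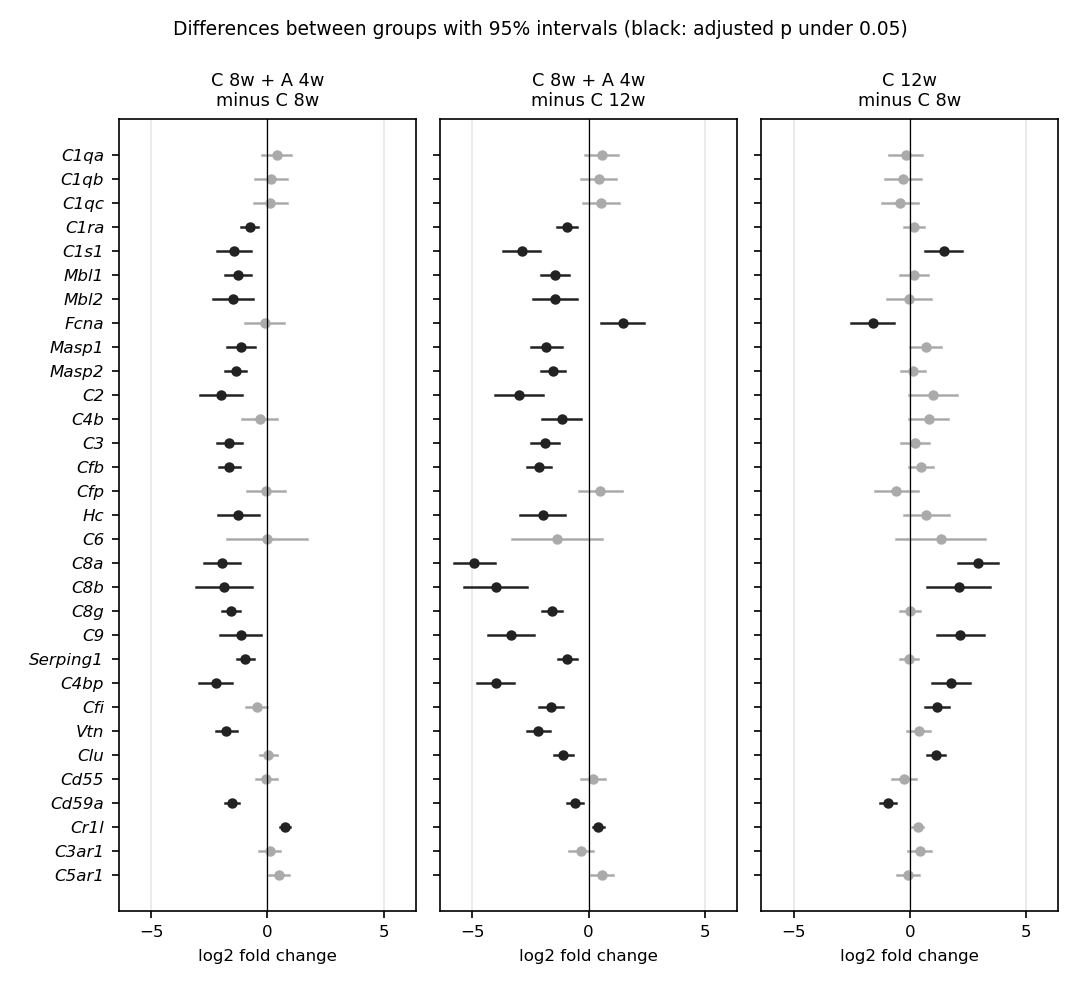
Log2 fold changes of the 31 complement genes tested, on the log2(FPKM + 1) scale, in the 3 comparisons, with 95% intervals from limma; black marks an adjusted p under 0.05 and grey the rest. In the panels of severe injury (C 8w + A 4w), 18 and 21 genes lie in black left of 0, and in the panel of C 12w against C 8w 7 lie in black right of it.

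The DNA just before the transcription start is shown for 6 genes to which the results below come back: C3, the most abundant; C8a, C8b, C9 and C4bp, whose levels were far apart between the groups; and Cr1l, the gene that was higher after severe injury in both comparisons. Each line gives the 250 bases upstream of the start in RefSeq's GRCm38.p6 annotation, 5′ to 3′ on the gene's own strand, with its coordinates. Of the 33 genes, 25 were found in the promoter table. Capitals mark a match to TTGCNNAA (the letters bound by C/EBP factors), TTCNNNGAA (STAT factors) or TTAATNATT (HNF1), searched on both strands with N as any base.
C3, chr17:57228137-57228386, minus strand: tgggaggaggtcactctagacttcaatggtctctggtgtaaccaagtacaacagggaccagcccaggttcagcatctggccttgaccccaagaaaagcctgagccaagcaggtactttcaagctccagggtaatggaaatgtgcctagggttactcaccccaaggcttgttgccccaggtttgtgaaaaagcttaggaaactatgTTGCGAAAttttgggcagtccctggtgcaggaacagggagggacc
C8a, chr4:104876399-104876648, minus strand: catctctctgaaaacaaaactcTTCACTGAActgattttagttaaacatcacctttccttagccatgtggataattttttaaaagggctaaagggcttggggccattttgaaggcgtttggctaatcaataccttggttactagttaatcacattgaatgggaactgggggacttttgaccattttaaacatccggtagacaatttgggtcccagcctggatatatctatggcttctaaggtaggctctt
C8b, chr4:104766067-104766316, plus strand: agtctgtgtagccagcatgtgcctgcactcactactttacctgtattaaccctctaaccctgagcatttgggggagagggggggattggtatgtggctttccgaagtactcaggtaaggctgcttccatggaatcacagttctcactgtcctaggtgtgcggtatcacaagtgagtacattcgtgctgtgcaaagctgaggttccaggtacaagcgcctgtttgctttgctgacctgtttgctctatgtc
C9, chr15:6445096-6445345, plus strand: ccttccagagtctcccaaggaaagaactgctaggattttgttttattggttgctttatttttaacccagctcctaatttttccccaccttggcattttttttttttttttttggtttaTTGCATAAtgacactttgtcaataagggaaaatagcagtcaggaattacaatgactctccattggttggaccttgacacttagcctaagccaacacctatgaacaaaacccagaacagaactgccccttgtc
C4bp, chr1:130661619-130661868, minus strand: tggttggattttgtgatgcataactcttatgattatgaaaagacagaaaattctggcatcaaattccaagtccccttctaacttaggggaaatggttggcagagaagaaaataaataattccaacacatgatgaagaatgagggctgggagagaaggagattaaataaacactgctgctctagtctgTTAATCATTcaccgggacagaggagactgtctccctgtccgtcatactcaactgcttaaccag
Cr1l, chr1:195131571-195131820, minus strand: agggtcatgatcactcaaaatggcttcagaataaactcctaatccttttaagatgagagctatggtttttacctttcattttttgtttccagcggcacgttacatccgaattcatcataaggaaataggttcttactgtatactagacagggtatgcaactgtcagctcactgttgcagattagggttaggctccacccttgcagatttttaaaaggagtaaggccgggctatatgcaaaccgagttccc
The C/EBP letters were found in C3 and C9, at -45 and -132 from the start, the STAT letters in C8a at -228 and the HNF1 letters in C4bp at -63. None of the 3 patterns was found in these windows of C8b and Cr1l. Over the promoters of the complement genes, 11.1% held the C/EBP letters, 11.1% the STAT letters and 7.41% the HNF1 letters (3, 3 and 2 of 27 promoters, as some genes have more than 1 start), against 9.56%, 7.02% and 1.40% of all 32851 promoters. A match is a description of the letters and not a binding site.

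The C1 complex divided into its recognition chains and its proteases. C1qa, C1qb and C1qc, the 3 chains of C1q, passed the test in none of the 3 comparisons, while the proteases C1ra and C1s1 were lower in the severe-injury group than in either other group. The FPKM of C1qa was 38.1, 44.7 and 39.1 in C 8w, 48.3, 87.8 and 36.1 in the severe-injury group and 36.2 and 35.6 in C 12w, and C1qb and C1qc ran from 41.4 to 46.5 and 33.7 to 40.7 in C 8w, 31.9 to 83.9 and 25.9 to 70.2 in the severe-injury group and 34.9 to 36.04 and 27.6 to 28.1 in C 12w. The severe-injury mouse C097 was the highest of all 8 mice for each chain, while C096 lay within or just above the range of C 8w and C098 below it. The log2 fold change of C1qa against C 8w was 0.39 ± 0.28 (SE, 95% interval -0.24 to 1.02) and that against C 12w was 0.56 ± 0.31 (-0.14 to 1.27). C1qb and C1qc gave 0.15 and 0.13 against C 8w, and 0.43 and 0.55 against C 12w. Their estimates against C 8w turned negative under median-ratio scaling (-0.0041 and -0.022) and without C097 (-0.25 for each). That of C1qa was 0.24 under this scaling and 0.041 without C097.

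C1ra, the protease that C1q activates, was at 25.7, 23.1 and 23.9 FPKM in C 8w, 11.5, 18.5 and 12.2 in the severe-injury group and 26.9 and 28.1 in C 12w. All 3 severe-injury mice lay under all others. The log2 fold change was -0.77 ± 0.17 (SE) against C 8w (limma adjusted p = 0.00769) and -0.94 ± 0.19 against C 12w (adjusted p = 0.00569). C1s1, the protease that cleaves C4 and C2, was at 20.9, 18.5 and 17.5 FPKM in C 8w, 4.43, 12.5 and 4.53 in the severe-injury group and 51.01 and 56.4 in C 12w. Its 3 groups did not overlap, rising from severe injury to C 8w to C 12w. Its mean was 2.65 times higher in C 8w and 7.51 times higher in C 12w than in the severe-injury group (limma adjusted p = 0.00850 and 5.42e-04), 4.23 and 11.99 times without C097, and the rise from C 8w to C 12w was 1.46 ± 0.35 on the log2 scale (adjusted p = 0.0249). That rise no longer passed with 1a, 2a, 3a or 3e left out (adjusted p from 0.0667 to 0.0803) or with no expression floor (0.0605). Of the 50-base windows of C1ra and C1s1 transcripts, 50.8% and 35.1% also occur in another gene, mostly their copies C1rb and C1s2, which were below 1 FPKM in all 8 samples.

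Markers of macrophages were high in the same mouse as C1q. The 15 macrophage and Kupffer cell markers, all above the expression floor, summed to 201 to 255.8 FPKM in C 8w, to 193, 562 and 175 in C096, C097 and C098, and to 233 and 203 in 2e and 3e. The summed FPKM of the 3 C1q chains was 114 to 132 in C 8w, 128, 242 and 93.9 in those 3 mice and 99.2 in each C 12w mouse. C097 was thus the highest mouse in both sums. None of the 15 markers was higher or lower in the severe-injury group than in C 8w by the test, 1 (Cd163) was higher than in C 12w, and the same gene was lower in C 12w than in C 8w. None of the 15 was at 0 in any sample, and the part of macrophage content in the C1q values was not tested.

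**Figure D3:**
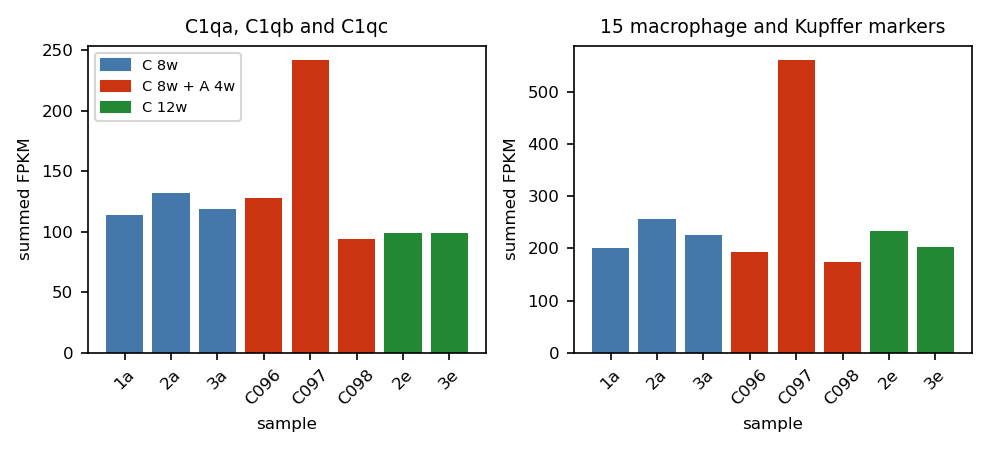
Summed FPKM of C1qa, C1qb and C1qc (left) and of 15 macrophage and Kupffer cell markers (right) in each of the 8 mice, with bars from 0 coloured by group (blue C 8w, red severe injury, green C 12w). The bar of C097 is the tallest in both panels, at 242 and 562 FPKM, while the other mice lie between 93.9 and 132 and between 175 and 255.8.

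In the lectin pathway, the mannose-binding lectins and their proteases were lower after severe injury, and ficolin A did not pass the test against C 8w. Mbl1 was at 49.1, 37.7 and 39.4 FPKM in C 8w, 14.2, 23.9 and 13.9 in the severe-injury group and 59.02 and 38.6 in C 12w. Mbl2, the more abundant lectin, was at 332, 298 and 254 FPKM in C 8w, 77.8, 136 and 107 in the severe-injury group and 488 and 167 in C 12w. For both lectins every severe-injury mouse lay under every other mouse, while C 8w and C 12w overlapped. The log2 fold changes against C 8w were -1.26 ± 0.24 and -1.48 ± 0.37 (limma adjusted p = 0.00401 and 0.0143), and those against C 12w were -1.45 ± 0.27 and -1.44 ± 0.42 (adjusted p = 0.00405 and 0.0280). Mbl2 lost its call against C 8w without 1a or C096 (adjusted p of 0.0579 and 0.0534) and against C 12w without C096, C098 or 2e (adjusted p from 0.0669 to 0.0985). The latter log2 fold change was -0.67 without 2e and -2.21 without 3e, and the call was also lost in a fit of those 2 groups alone (adjusted p = 0.0774) and with no expression floor (0.0640).

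Masp1 and Masp2 encode the proteases that the lectins carry. The FPKM of Masp1 was 10.3, 12.1 and 7.64 in C 8w, 2.56, 6.38 and 3.53 in the severe-injury group and 17.6 and 15.4 in C 12w, and that of Masp2 was 28.98, 27.03 and 23.02 in C 8w, 8.77, 9.03 and 10.98 in the severe-injury group and 38.7 and 22.1 in C 12w. In both genes the severe-injury mice lay under all others, and their spread in Masp2 was small, with a mean of 9.59 ± 1.21 (SD, n = 3). The log2 fold changes of Masp1 were -1.14 ± 0.26 against C 8w and -1.83 ± 0.29 against C 12w (limma adjusted p = 0.00985 and 0.00217), and those of Masp2 -1.37 ± 0.20 and -1.52 ± 0.22 (adjusted p = 0.00114 and 0.00139). Masp2 overlaps its neighbour Tardbp in the annotation, with 52.5% of its windows in Tardbp, which was at 11.4 to 17.9 FPKM over all 8 samples.

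Fcna, ficolin A, was at 47.7, 32.1 and 34.9 FPKM in C 8w, 25.6, 58.96 and 26.9 in the severe-injury group and 17.03 and 8.05 in C 12w. Both tumor samples lay under all other mice, and the other groups overlapped, with C097 again the highest mouse. The gene was higher in the severe-injury group than in C 12w by 1.47 ± 0.40 on the log2 scale, and the change from C 8w to C 12w was -1.60 ± 0.40 (limma adjusted p = 0.0230 and 0.0284). Without 3e the former difference was 0.97, those adjusted p were 0.127 and 0.130, and without 1a, 2a or 3a the latter was between 0.0594 and 0.0951. With no expression floor neither passed (adjusted p = 0.0555 and 0.0669), nor did the former in a fit of those 2 groups alone (0.0616). Against C 8w, the severe-injury group gave -0.13 ± 0.36 (-0.95 to 0.70, 95% interval).

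C3, on which all pathways converge and the most abundant complement transcript in every sample, was at 1521, 1405 and 1199 FPKM in C 8w, 307, 512 and 539 in the severe-injury group and 1603 and 1640.4 in C 12w. The lowest mouse outside the severe-injury group was more than 2 times the highest within it, and C 12w lay just above C 8w. The mean was 1375 ± 163 (SD, n = 3), 453 ± 127 (n = 3) and 1622 ± 26.5 (n = 2), a level 3.04 times higher in C 8w and 3.58 times higher in C 12w than in the severe-injury group. The log2 fold changes were -1.64 ± 0.24 and -1.88 ± 0.26 (SE, limma adjusted p = 0.00106 and 0.00110), and C 12w did not pass the test against C 8w (0.24 ± 0.26, adjusted p = 0.529).

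C2 and Cfb, which lie next to each other in the annotation, encode the proteases of the C3 convertases. C2, which serves the classical and lectin pathways, was at 10.9, 8.80 and 7.10 FPKM in C 8w, 0.900, 2.06 and 1.57 in the severe-injury group and 9.70 and 34.9 in C 12w. Cfb, factor B, which serves the alternative pathway, was at 194, 182 and 164 FPKM in C 8w, 43.9, 65.8 and 62.6 in the severe-injury group and 208 and 301 in C 12w. In both genes all severe-injury mice were the lowest, and 3e was the highest of all mice. The mean of C2 was 5.91 times higher in C 8w and 14.8 times higher in C 12w than in the severe-injury group (limma adjusted p = 0.00542 and 0.00153), and that of Cfb 3.13 and 4.43 times (adjusted p = 4.21e-04 and 2.29e-04). The ratio of C2 between C 12w and severe injury depended on the tumor sample, at 23.1 without 2e and 6.43 without 3e. From C 8w to C 12w neither passed the test (adjusted p = 0.141 and 0.154), but without 2e both did (adjusted p = 0.00254 and 0.0399), which rests on 3e alone, assumed to vary like the mice of the other groups. C2 shares 41.6% and Cfb 73.0% of its windows with other genes, chiefly Gm20547, an annotated read-through of the pair, itself at 49.7 to 62.3 FPKM in C 8w, 12.6 to 18.0 in the severe-injury group and 57.4 and 99.1 in C 12w, so reads may have been divided among the 3.

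C4b, the mouse C4, was at 54.9, 45.7 and 42.9 FPKM in C 8w, 22.7, 45.1 and 50.8 in the severe-injury group and 61.1 and 118 in C 12w. C096 was low and the other 2 severe-injury mice lay among those of C 8w, while both tumor samples lay above every other mouse. The gene was lower than in C 12w (-1.17 ± 0.37 on the log2 scale, limma adjusted p = 0.0394), a call that was lost without 1a, 2a, 3a, C096 or 3e (adjusted p from 0.0597 to 0.210, and -0.69 on the log2 scale without 3e), in a fit of those 2 groups alone (0.0982) and with no expression floor (0.0828). It did not pass against C 8w (-0.34 ± 0.33, adjusted p = 0.442). C 12w against C 8w gave 0.83 ± 0.37 (adjusted p = 0.139), which passed without 2e (0.0339) and with no other sample left out, and then rests on 3e alone, with the spread taken from the other groups. C4b shares 34.6% of its windows with its copy C4a, for which no FPKM value was found.

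In the alternative pathway, Cfp (properdin, which stabilises the convertase) was at 15.2 to 19.9 FPKM in C 8w, 8.24 to 24.6 in the severe-injury group and 8.29 to 14.4 in C 12w and passed the test in no comparison. The lowest and the highest mouse of all 8 were both in the severe-injury group (C098 and C097). Without C098 the difference from C 12w was 0.95 on the log2 scale (adjusted p = 0.0349). Cfd, factor D, the protease that cleaves factor B, was below the expression floor, listed at 0 in 5 of 8 samples and at 6.59 FPKM in C097.

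Among the terminal components, 5 of the 6 genes tested were lower in the severe-injury group than in C 8w and than in C 12w, and 3 (C8a, C8b and C9) were above C 8w in C 12w, where 13.5% and 16.1% of all genes were lower and 13.1% higher. The 7 genes summed to 164 to 191 FPKM in C 8w, 51.9, 92.4 and 62.5 in C096, C097 and C098, and 501 and 366 in 2e and 3e. Hc, mouse C5, was at 51.8, 49.7 and 38.9 FPKM in C 8w, 10.1, 29.6 and 22.4 in the severe-injury group and 108 and 54.9 in C 12w. The severe-injury mice were the lowest and the tumor samples the highest, with no overlap. The log2 fold change was -1.25 ± 0.38 against C 8w (limma adjusted p = 0.0307) and -1.97 ± 0.42 against C 12w (adjusted p = 0.00842). The call against C 8w was lost without 1a, 2a, 3a, C096 or C098 (adjusted p from 0.0542 to 0.1003, and -0.83 on the log2 scale without C096) and with no expression floor (0.0714).

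C8a, C8b and C8g encode the 3 chains of C8, which starts the insertion of the complex into a membrane. C8a was at 11.03, 7.95 and 5.61 FPKM in C 8w, 0.776, 2.24 and 1.10 in the severe-injury group and 99.2 and 46.9 in C 12w. C8b was at 6.57, 4.17 and 2.88 FPKM in C 8w, 0.385, 0.474 and 0.480 in the severe-injury group and 52.4 and 8.91 in C 12w. C8g was at 92.9, 76.98 and 79.5 FPKM in C 8w, 30.97, 27.9 and 22.5 in the severe-injury group and 97.4 and 71.1 in C 12w. The 3 groups of C8a and of C8b did not overlap, with the severe-injury group lowest and C 12w highest, whereas the C8g values of the 2 C 12w mice lay on either side of the C 8w mice. Each chain was lower after severe injury than in C 8w, with log2 fold changes of -1.96 ± 0.34 for C8a, -1.88 ± 0.53 for C8b and -1.59 ± 0.17 for C8g (limma adjusted p = 0.00264, 0.0230 and 1.99e-04). Against C 12w the same differences were -4.92 ± 0.38, -3.99 ± 0.59 and -1.59 ± 0.19 (adjusted p = 3.39e-05, 0.00147 and 4.30e-04). From C 8w to C 12w, C8a rose by 2.96 ± 0.38 and C8b by 2.11 ± 0.59 (adjusted p = 0.00214 and 0.0400), and C8g gave 0.01 ± 0.19 (-0.42 to 0.43, 95% interval).

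C8a and C8b are neighbours on chromosome 4, with no coding gene between them in RefSeq's GRCm38.p6 annotation, and C8g lies on chromosome 2. As FPKM is scaled by length, the chains are compared here within a mouse. This assumes that each chain was fully counted, which could not be checked, since the quantifier and annotation are not given. The FPKM of C8a was 7.05 to 11.9% of that of C8g in C 8w, 2.50 to 8.04% in the severe-injury group, and 102 and 65.9% in 2e and 3e. The tumor samples were thus the only ones in which the listed FPKM of C8a came near that of C8g. The calls of C8b were the least firm of the 3, since its call against C 8w was lost without 1a, 2a, C096, C097 or C098 (adjusted p from 0.0544 to 0.0900), and its rise in C 12w with any sample but 3e left out (adjusted p from 0.0531 to 0.118, and 0.89 on the log2 scale without 2e against 3.32 without 3e). With no expression floor both were lost (adjusted p = 0.0592 and 0.0920), and the rise also under both scalings, among genes of at most 2% shared sequence and in a fit of those 2 groups alone (adjusted p from 0.0615 to 0.1001).

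C9, which forms the pore, was at 25.8, 32.9 and 32.9 FPKM in C 8w, 7.15, 25.4 and 12.2 in the severe-injury group and 110.1 and 182 in C 12w. The severe-injury mouse C097 lay just under the lowest C 8w mouse, the other 2 well below, and both tumor samples far above. The mean of C 12w was 4.78 times that of C 8w and 9.79 times that of the severe-injury group (limma adjusted p = 0.0122 and 7.39e-04), the latter 15.1 times without C097, and the change from C 8w to the severe-injury group was -1.15 ± 0.39 on the log2 scale (adjusted p = 0.0456). That fall was lost without 1a, 2a, 3a, C096 or C098 (adjusted p from 0.0862 to 0.125, and -0.75 on the log2 scale without C096) and with no expression floor (0.0972), and the rise in C 12w without 3e (adjusted p = 0.0530).

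C6 was at 2.89 to 3.52 FPKM in C 8w and 2.11 to 6.04 in the severe-injury group, and at 34.2 and 2.16 in 2e and 3e. A single tumor sample held the high value, and the groups did not differ by the test (adjusted p = 0.983, 0.245 and 0.276 for the severe-injury group against C 8w, the same against C 12w, and C 12w against C 8w). With 3e left out, the change from C 8w to the remaining C 12w mouse was 3.08 on the log2 scale. The severe-injury group was lower than that mouse, with a log2 fold change of -3.10. Both values rest on 2e alone. C7 was below the expression floor, at 0.252 to 0.585 FPKM in C 8w, 0.417 to 1.66 in the severe-injury group and 0.0916 to 0.159 in C 12w.

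The soluble regulators showed 2 patterns. Serping1, C4bp and Vtn were lower after severe injury than in either other group, and Cfi and Clu were lower than in C 12w and did not pass the test against C 8w. Serping1, the C1 inhibitor, was at 214, 196 and 186 FPKM in C 8w, 82.3, 116 and 110.1 in the severe-injury group and 208 and 181 in C 12w. Vtn, vitronectin, which keeps the terminal complex off membranes, was at 878, 712 and 705 FPKM in C 8w, 177, 228 and 268 in the severe-injury group and 874 and 1123 in C 12w. C4bp, the binding protein of C4b and a cofactor of factor I, was at 67.1, 43.8 and 44.4 FPKM in C 8w, 6.02, 16.8 and 9.59 in the severe-injury group and 165 and 186 in C 12w. In each of the 3 genes no severe-injury mouse reached the lowest of the others, and in C4bp the tumor samples also lay above all C 8w mice. Against C 8w the log2 fold changes were -0.95 ± 0.16 for Serping1, -1.78 ± 0.20 for Vtn and -2.24 ± 0.32 for C4bp (limma adjusted p = 0.00222, 2.79e-04 and 9.81e-04). Against C 12w they were -0.92 ± 0.18, -2.16 ± 0.22 and -4.00 ± 0.35 (adjusted p = 0.00510, 2.15e-04 and 8.05e-05). The mean of C4bp in C 12w was 3.39 times that of C 8w (adjusted p = 0.0126), while Serping1 and Vtn did not pass that test (adjusted p = 0.911 and 0.247).

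Cfi, factor I, the protease that inactivates C3b and C4b, was at 177, 143 and 135 FPKM in C 8w, 87.6, 121 and 121 in the severe-injury group and 280.4 and 409.7 in C 12w. Its groups did not overlap, yet the severe-injury mice lay close under those of C 8w. It was above C 8w in C 12w (log2 fold change 1.17 ± 0.23) and lower in the severe-injury group than in C 12w (-1.64 ± 0.23, limma adjusted p = 0.0110 and 0.00102), and gave -0.47 ± 0.20 against C 8w (adjusted p = 0.0969), which passed without 2e or 3e (0.0461 and 0.0460), in a fit of those 2 groups alone (0.0454) and with samples scaled by median ratios (0.0393). Clu, clusterin, an inhibitor of the terminal complex, was at 319, 284 and 318 FPKM in C 8w, 261, 356 and 334 in the severe-injury group and 707 and 639 in C 12w. Both tumor samples lay above all other mice and the other 2 groups overlapped. The C 12w mean was 2.19 times the C 8w mean (adjusted p = 0.00486), and the severe-injury group against C 8w gave 0.04 ± 0.16 (-0.33 to 0.40, 95% interval), an estimate whose sign turned under median-ratio scaling (-0.12) and among genes of at most 2% shared sequence (-0.09).

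On the membrane side, 2 genes moved in opposite directions. Cr1l, the rodent regulator Crry, which stops C3 convertases on the cell's own surface, was at 5.40, 6.11 and 5.54 FPKM in C 8w, 10.04, 10.4 and 10.2 in the severe-injury group and 7.69 and 7.24 in C 12w. The groups did not overlap, and the 3 severe-injury mice were the highest and the closest together (10.2 ± 0.171, SD, n = 3). The log2 fold change was 0.75 ± 0.09 against C 8w and 0.41 ± 0.10 against C 12w (limma adjusted p = 4.78e-04 and 0.0170), and C 12w against C 8w stopped short of the threshold (0.34 ± 0.10, adjusted p = 0.0504) but passed with a pseudocount of 0.1 (0.0485) and with no expression floor (0.0459). The call against C 12w was lost without C098 or 3e (adjusted p of 0.0502 and 0.0553) and in a fit of those 2 groups alone (0.0759). Against C 8w it was 1 of 2814 genes that were higher. Cd59a, which blocks the last step of the pore, was at 20.4, 18.8 and 16.4 FPKM in C 8w, 4.97, 6.22 and 6.04 in the severe-injury group and 10.1 and 8.21 in C 12w.

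The Cd59a levels stepped down from C 8w to C 12w to the severe-injury group with no overlap. The change was -1.53 ± 0.13 from C 8w to the severe-injury group and -0.94 ± 0.15 from C 8w to C 12w on the log2 scale (limma adjusted p = 5.99e-05 and 0.00489), and -0.59 ± 0.15 from C 12w to the severe-injury group (adjusted p = 0.0158, or 0.0617 without 2e and 0.0521 in a fit of those 2 groups alone). Its copy Cd59b was below 1 FPKM in all samples. Cd55, the decay-accelerating factor, was at 2.82 to 2.97 FPKM in C 8w, 1.90 to 3.99 in the severe-injury group and 1.87 to 2.81 in C 12w and passed in no comparison (adjusted p = 0.875, 0.538 and 0.467). Shared windows made up 4.34% of Cr1l, 3.87% of Cd59a and 9.12% of Cd55.

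The receptors of the released fragments, C3ar1 and C5ar1, were low throughout. C3ar1 was at 0.493 to 0.614 FPKM in C 8w, 0.380 to 1.25 in the severe-injury group and 0.836 to 1.38 in C 12w, and C5ar1 at 0.505 to 0.754 in C 8w, 0.734 to 1.93 in the severe-injury group and 0.498 to 0.512 in C 12w. In the severe-injury group the highest mouse was C097 for both, the mouse with the highest macrophage markers. With all samples and the main settings, neither passed in any comparison. C5ar1 reached the expression floor in 2 severe-injury mice (C097 and C098) and in no other sample, so it was tested only through the group where it is high. C3ar1 passed against C 12w without C097 (-0.55 on the log2 scale, adjusted p = 0.0381). Without C096, C5ar1 passed against C 8w (0.67 on the log2 scale, adjusted p = 0.0180) and against C 12w (0.75, adjusted p = 0.0171). It also passed against C 12w with quantile scaling (0.57, adjusted p = 0.0385).

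Of 26 other complement genes, 24 were matched and 13 passed the expression floor. In the severe-injury group 6 were lower and none higher than in C 8w, and 6 were lower and 1 higher than in C 12w, where 13.5% of all genes were lower and 25.6% higher in the former comparison and 16.1% and 18.1% in the latter. Among those lower in both comparisons were Cpn1 and Cpn2 (the chains of carboxypeptidase N, which inactivates the released fragments) and F2 (thrombin, which can cleave C5). Cpn1 was at 119.8, 95.03 and 88.7 FPKM in C 8w, 32.6, 37.9 and 37.4 in the severe-injury group and 149 and 162 in C 12w. The severe-injury mice were the lowest, with a log2 fold change against C 8w of -1.46 ± 0.14 (limma adjusted p = 1.25e-04). The gene that was higher than in C 12w was C1qbp, a mitochondrial protein that also binds C1q (0.56 ± 0.16, adjusted p = 0.0276). In C 12w against C 8w, 2 were higher, Cpn1 among them, and none was lower, against 13.1% and 6.90% of all genes.

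The spread within a group was wide after severe injury and within the tumor pair. Among the 3 mice of the severe-injury group, 12 of 31 complement genes spanned at least 1 log2 unit of log2(FPKM + 1), against 4.20% of all genes tested, while in C 8w none did, against 0.963%. C097 was the highest of these mice for 24 of the 31 genes and C096 the lowest for 24. This order was not counted over all genes, so whether it is particular to the complement genes was not tested. Without C097, 17 complement genes were lower and 1 higher than in C 8w, against 13.8% and 21.0% of all genes. Without C096, 14 were lower and 2 higher, against 10.1% and 20.2% of all genes. The median log2 fold change of the complement genes was -1.33 without C097 and -0.80 without C096.

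Between the 2 tumor samples, 5 of 31 complement genes (16.1%) differed by at least 1 log2 unit, against 6.95% of all genes tested. C6 was 15.8 times higher in 2e than in 3e, C8b 5.88 times, Mbl2 2.92 times and C8a 2.12 times, while C2 was 3.60 times higher in 3e. The remaining genes, C3 and the C1q chains among them, lay within that limit, and C3 differed by 1.02 times. With 1 mouse on each side these differences have no test. Cholangiocyte markers, of which 3 were above C 8w in C 12w, summed to 28.2 FPKM in 2e and 339 in 3e, of which Spp1 alone was 22.2 and 311 and the other 5 markers together 5.95 and 27.97. Hepatocyte markers without Alb summed to 29673 and 14968 in the same order. Their part in these differences was not tested.

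**Figure D4:**
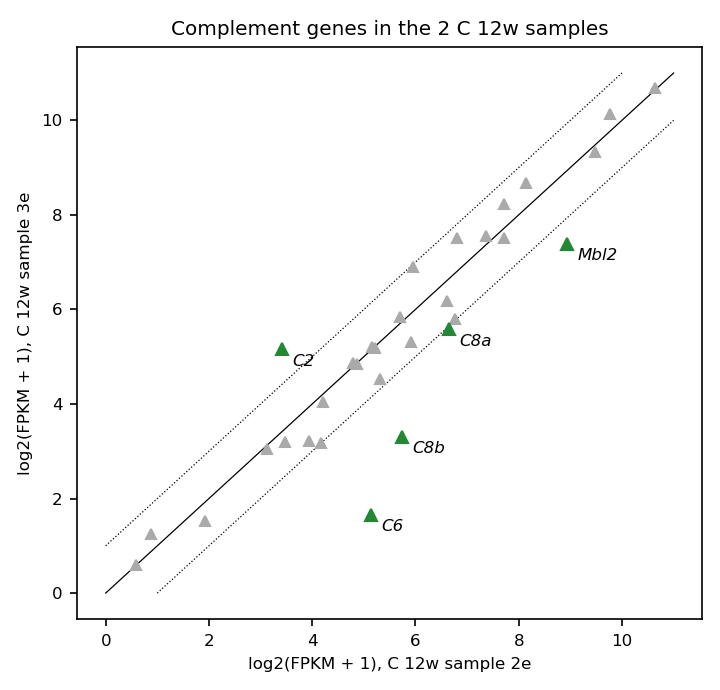
Log2(FPKM + 1) of the 31 complement genes tested in the C 12w sample 2e (horizontal axis) and 3e (vertical axis), with 1 triangle per gene, the line of equal levels and dotted lines 1 log2 unit either side. The 5 named genes lie outside the dotted lines, C6, C8b, Mbl2 and C8a on the side of 2e and C2 on that of 3e.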

How the data were processed

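RNA sequencing values of 8 Fah-/- mice were used, grouped by their treatment labels into C 8w (n = 3), C 8w + A 4w (n = 3) and C 12w (n = 2). The authors deposited FPKM values in 1 table of 22504 Ensembl gene identifiers, and 0 columns of other samples were present. The submitters' processing notes name Bowtie 0.12.2 and mm8, and the quantifier and annotation are not given in the sources used here. FPKM holds no counts, so depth and counting error are unknown.

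The test took log2(FPKM + 1) of the genes that reached 1 FPKM in 2 or more of 8 samples, unscaled, into limma 3.58.1 in R 4.3.3 (1 fit of 3 groups, eBayes with a trend, two-sided, Benjamini-Hochberg adjustment over 11007 genes, threshold 0.05). The fit was tested on simulated data. The complement genes, their roles, the list of other complement genes and the marker lists were chosen with earlier results of these data known. Each complement gene is reported, those called in at least 1 comparison with every sample and the rest by range. Of the other complement genes, counts are given and those called are named, apart from some that are not reported here. The study takes each sample as 1 animal. Where a group's samples are not from separate animals, p-values measure technical spread.

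Shared sequence is how much of a gene, in percent of the 50-base windows of its GENCODE M21 transcripts, recurs elsewhere among the transcripts, on either strand, computed with Python 3.11.15. The promoters are RefSeq's on GRCm38.p6, and no coordinates were taken from mm8. The alternatives were a pseudocount of 0.1, a floor in at least 4 samples or none, median-ratio and quantile scaling, genes with at most 2% shared sequence (scaled by their own median ratios), a log2 fold change of at least 1, eBayes without a trend, a fit of 2 groups, each sample left out in turn, and the replicate number as a block. The block with crossed numbers was added after seeing the data.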

Additional observations from a re-analysis of the deposited data

How the results depend on the processing

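With 1 sample left out at a time, between 15 and 20 complement genes were called for severe injury against C 8w (19 with all samples), 21 to 24 against C 12w (23) and 6 to 11 for C 12w against C 8w (9), where 24.3 to 50.1%, 26.0 to 42.3% and 8.09 to 36.1% of all genes were called. The 11, without 2e, are 35.5% of the 31 complement genes beside 36.1% of all genes. With 2e or 3e left out, C 12w is 1 mouse, assumed to vary like the other groups. No gene called with all samples changed sign in any alternative. The calls that held whichever sample was left out, and in each other setting that gave the gene a value apart from the block and the limit of at least 1 on the log2 fold change, numbered 15 of 19, 18 of 23 and 5 of 9 (C4bp, C8a, Cd59a, Cfi and Clu). With that limit too they were 12, 16 and 4, and under that limit alone 16, 19 and 8 complement genes were called, beside 11.4%, 12.5% and 5.81% of all genes. With genes of at most 2% shared sequence alone, of which 22 are complement genes, 12, 15 and 6 were called in the 3 comparisons, beside 35.2%, 32.0% and 20.5% of all genes so chosen. In that setting the samples were also scaled by the median ratios of those genes. Other pseudocounts, floors, scalings, variance models and samples in the fit gave 16 to 20, 18 to 24 and 7 to 10 calls, beside 24.3 to 50.1%, 21.3 to 36.7% and 10.2 to 20.8% of all genes.

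The replicate numbers 2 and 3 occur in C 8w as in C 12w, and nothing in the labels pairs the mice. The difference between 2 and 3 in C 12w correlated with that in C 8w at -0.18 across 11007 genes, which are not independent replicates. With the number as a replicate block in those 4 samples, 4 complement genes and 169 of all genes were called, and with the numbers crossed 0 and 2 (limma, 13 complement genes at an unadjusted p under 0.05). Over all genes, a log2 fold change of at least 1 left 1260, 1378 and 640 calls of 4305, 3764 and 2199. The 2-group fit left 2344 for severe injury against C 12w. In C 12w against C 8w, leaving out 1a, 2a or 3a gave 891, 1147 and 940 and leaving out 2e 3978, and without 1a severe injury against C 8w gave 2676. With that sequence limit, 2377, 2161 and 1387 of 6757 were called. The lack of counts and the 2 mice of C 12w limit what can be seen at low FPKM.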

Other observations

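The remaining marker lists gave these sums and calls. Endothelial markers, 5 of 5 above the expression floor, summed to 35.8 to 38.6 FPKM in C 8w, 16.1 to 30.5 in the severe-injury group and 18.2 to 23.1 in C 12w, with 1 higher and 3 lower after severe injury than in C 8w, and 3 lower in C 12w. Cholangiocyte markers, 4 of 6 above the floor, summed to 9.51 to 15.2 FPKM in C 8w and 26.3 to 32.8 in the severe-injury group, with 1 higher (Epcam) after severe injury than in C 8w. Stellate cell and fibroblast markers, 7 of 7 above the floor, summed to 85.5 to 92.8 FPKM in C 8w, 90.7 to 144 in the severe-injury group and 71.3 to 78.7 in C 12w. Most of that sum was Dcn, at 40.5 to 116 FPKM. Of the 7, severe injury gave 1 lower against C 8w (Col3a1), and 2 higher (Dcn and Lrat) and 2 lower (Col1a1 and Col3a1) against C 12w, while C 12w against C 8w gave Col1a1 and Col3a1 higher and Dcn lower, so that the sum went the opposite way to the collagens. Of the neutrophil markers 3 of 6 were above the floor, with sums of 3.89 to 15.03 FPKM over all samples and 1 (Retnlg) higher after severe injury than in C 8w, which reached the floor in 2 severe-injury mice and in no other sample and so was tested only through the group where it is high, and of the T, NK and B cell markers none of 7, with sums of 0.644 to 2.16. The part of these cell types in the complement values was not tested.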
